A study of Mus musculus with 12 samples.

Results

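B16F10, a mouse melanoma cell line, was compared with Melan-a, a line of non-tumour mouse melanocytes. The members of this comparison are the circular RNAs (circRNAs) with at least 1 back-splice read in any of the 6 libraries of these lines: 8857 of the 12830 circRNAs read in the whole series. The series also holds a mammary pair, 4T1 breast cancer cells and Eph4-ev breast epithelial cells, and its title concerns circRNAs specific to tumours and the peptides they may encode. Each line has 3 libraries of total RNA treated with RNase R, an enzyme that digests linear RNA. The labels give no treatment, passage or mouse strain. Nothing in the labels says that the libraries of a line came from separate cultures, so p-values measure only the spread between these libraries, which may be technical. Only 1 line of each kind was read, so being a tumour and any other property by which these lines differ cannot be told apart.

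A circRNA forms when the splicing machinery joins the end of an exon back to the start of the same or an earlier exon. The closed loop has no free ends, resists exonucleases and can outlast the linear messenger RNA of its host gene. Reads across the back-splice identify it, since that order of exons is absent from the linear transcript. Melanocytes are pigment cells of the neural crest lineage, and melanoma arises from them. The products of Pmel and Tyr, a fibril protein and the key enzyme of melanin synthesis, are among their defining markers. Signalling through receptor tyrosine kinases such as Met, the receptor of hepatocyte growth factor, is well known in melanoma.

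The joins that define the circRNAs with the strongest differences are shown first, since a primer or probe across them separates the circle from the linear RNA. Each run holds the last 15 bases of the last exon in lower case and the first 15 bases of the first exon in capitals, 5′ to 3′ on the strand of the host gene. Sequences and exon numbers come from GENCODE M21 on GRCm38, to which 8697 of the 8857 circRNAs (98.2%) were matched within 1 transcript.
Met exons 2 to 3 (chr6:17487797-17492437, plus strand): cactgtttcaataggGATGGCTGTGGAGAG
Met exons 2 to 4 (chr6:17487797-17513541, plus strand): ggtcgcttcatgcagGATGGCTGTGGAGAG
Fto exons 2 to 8 (chr8:91401807-91522896, plus strand): ggagtggcatgccagAAACTGAGGCTCCTT
Inpp5f exons 3 to 15 (chr7:128659016-128685284, plus strand): tgactgcgaccccagATCTTCCATGGTGGC
Epha3 exon 3 (chr16:63772910-63773570, minus strand): gtttcatatgccaagTGGGAAGAGATCAGT
Col28a1 exons 9 to 13 (chr6:8127284-8158174, minus strand): gaacccggacagccaGGTGAACGAGGAGAA
Rngtt exons 12 to 13 (chr4:33379369-33404253, plus strand): aatgggaggagaaggCTTCTGGAAGGAAAT
Vps45 exons 8 to 10 (chr3:96041338-96042928, minus strand): tctagtgctcttcagTGGACATATCAGGCC
Vps45 exons 8 to 14 (chr3:96019609-96042928, minus strand): acacaacacaaaaagTGGACATATCAGGCC
Zfp609 exon 2 (chr9:65794622-65795495, minus strand): gtcaagtctgaaaagCAATGATGTTGTCCA
Arid1a exons 2 to 4 (chr4:133719537-133723051, minus strand): ccctccagcttgcctTCATCCAGTCCAATG
Both Met circles enter at the same exon start and so share their 15 capital bases, as do both circles of Vps45. They differ in the exon that closes the loop, and so in how many exons they hold.

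The 6 libraries held 16697 to 20011 junction reads in B16F10 and 25072 to 33557 in Melan-a, and 3343 to 4251 circRNAs each. Most circRNAs were rare. Only 911 had a read in all 6 libraries and 3512 had reads in 1 library alone, and 7983 were too sparse to test (median of 4 reads over the 6 libraries). The 874 tested circRNAs took 64.2% to 67.9% of each library's reads. RPM is the number of reads of a circRNA scaled to the total of junction reads in its library, a share of the circular fraction. It says nothing of the amount per cell, and a circle held by fewer cells of a line cannot be told apart from fewer copies per cell. Within B16F10, log2 CPM of 2 libraries correlated across tested circRNAs at r = 0.743 to 0.751. Within Melan-a, replicates 1 and 3 correlated at 0.729 and replicate 2 at 0.692 and 0.677 with them, so replicate 2 stood somewhat apart.

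Of the 874 tested circRNAs, 44 (5.03%) were higher and 51 (5.84%) lower in B16F10 by the edgeR quasi-likelihood test at an adjusted p under 0.05. The median log2 fold, B16F10 minus Melan-a, was 2.3 among those higher, -2.05 among those lower and 0.04 over all tested. Setting the 8 higher and 7 lower circRNAs with 0 reads in the other line to their bounds left these medians at 2.3 and -2.05. RPM ranges of both lines did not overlap for 94 of the 95 called circRNAs, against 279 of 874 tested (31.9%). The calls were made on these same counts, so this is a description and no separate support for them. The hosts of called circRNAs numbered 37 for those higher and 44 for those lower, with 0 shared. The counts moved with single libraries: without Melan-a replicate 2 they rose to 72 and 73, and with any 1 other library left out they were 22 to 27 higher and 20 to 28 lower. These runs also tested more circRNAs, 1250 to 1292 without a B16F10 library and 964 to 978 without a Melan-a library. A call lost there may therefore reflect the larger set tested or the fewer libraries, which were not separated. Of the 10 circRNAs with the smallest p in each direction, all 20 kept their call in every alternative run that gave them a value. There were 13 such runs, but 12 for Agap1 exons 6 to 8.

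**Figure D1:**
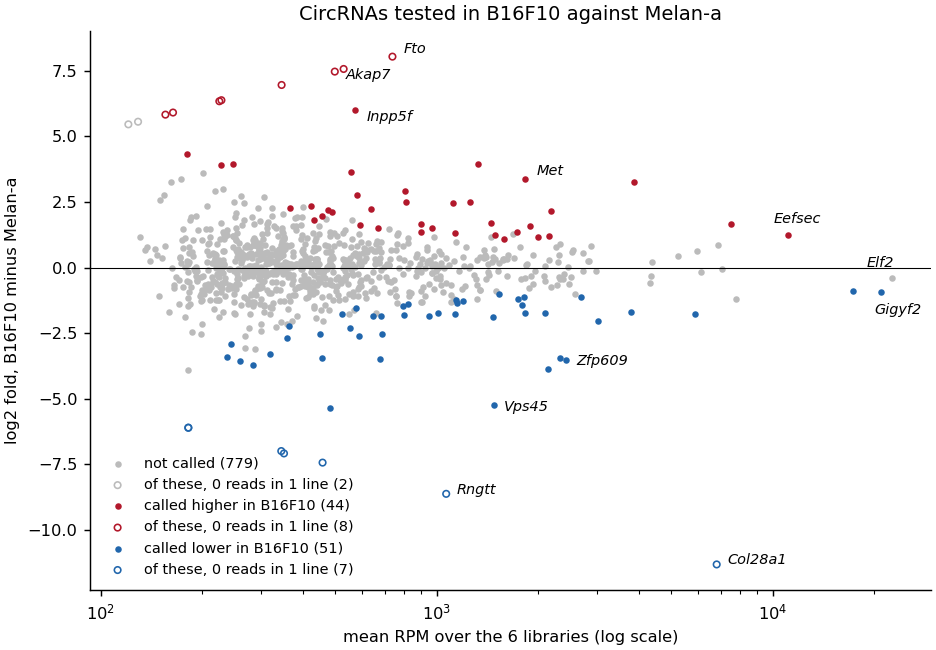
Each point is 1 of the 874 tested circRNAs, with the mean RPM over the 6 libraries on the x axis (log scale) and the log2 fold, B16F10 minus Melan-a, on the y axis. Red points (44) were called higher in B16F10, blue points (51) lower, and open circles had 0 reads in 1 line, so that their height depends on the prior count and is no measured fold. Col28a1 stands lowest, and Elf2 and Gigyf2 are the most abundant.

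Among receptor tyrosine kinases, circles of Met and of Epha3 rose in B16F10. The circle of exons 2 to 3 of Met had 125, 120 and 133 reads in the B16F10 libraries and 7, 44 and 10 in the Melan-a libraries. That is 7098 ± 860 RPM against 663 ± 565 (SD, n = 3), a difference of 3.28 ± 0.46 SE on the log2 scale (edgeR adjusted p = 0.000291). The circle of exons 2 to 4 had 65, 59 and 57 reads, against 5, 15 and 6 in Melan-a (a log2 difference of 3.38 ± 0.36 SE, edgeR adjusted p = 4.2e-05). In each the lines did not overlap, and Melan-a replicate 2 was the highest of its line. The other 9 Met circRNAs were too sparse to test. The most abundant of them, exons 16 to 20, named after its values were seen, had 9, 11 and 3 reads in B16F10 against 0, 3 and 0.

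Epha3 encodes an ephrin receptor. Its single-exon circle, exon 3, had 27, 24 and 26 reads in B16F10 against 4, 8 and 3 in Melan-a (a log2 difference of 2.92 ± 0.44 SE, edgeR adjusted p = 0.000606). Exons 4 to 5, named after its values were seen, gave 47, 38 and 31 against 3, 12 and 15 (log2 fold of 2.51 ± 0.44 SE, edgeR adjusted p = 0.00207). Over the receptor tyrosine kinase list of 54 genes, 13 had reads and 5 were tested at host level, where the reads of all circRNAs with a single host gene are summed. Of all 898 tested hosts 64 (7.13%) were called, 25 (2.78%) higher and 39 (4.34%) lower, and the median log2 fold was -0.0. In this list 2 of 5 were higher and 0 lower: Met (11 circRNAs, 214, 205 and 204 reads against 15, 68 and 16) and Epha3 (11 circRNAs, 88, 67 and 72 against 9, 20 and 18). Ddr1, Igf1r and Insr, named after their values were seen, had edgeR adjusted p of 0.407, 0.76 and 0.264.

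Among 23 tested hosts of the MAPK and PI3K signalling list, 1 was higher and 1 lower, with a median log2 fold of 0.08. The host higher was Inpp5f, a phosphatase gene of inositol lipid metabolism, with 44, 36 and 37 reads in B16F10 against 0, 3 and 1 in Melan-a (a log2 difference of 5.28 ± 0.54 SE, edgeR adjusted p = 4.41e-05). Its largest circle, exons 3 to 15 with a spliced length of 1708 bases, had 23, 16 and 22 reads against 0, 1 and 0 (edgeR adjusted p = 0.000107). A shorter circle from the same exon start, exons 3 to 9, had 13, 15 and 9 reads against 0 in each Melan-a library. Rasa2, a Ras GTPase-activating protein gene, was lower, with 49, 49 and 45 reads against 132, 188 and 103 (log2 fold of -1.0 ± 0.24 SE, edgeR adjusted p = 0.027). That call was lost when B16F10 replicate 1, 2 or 3 was left out (edgeR adjusted p = 0.186, 0.112 and 0.139) or Melan-a replicate 1 (0.0798).

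RNA-modifying and RNA-binding genes gave 1 host higher and 1 lower of 14 tested, with a median log2 fold of 0.12. Fto, which encodes an RNA demethylase, rose with 116, 87 and 91 reads in B16F10 against 4, 8 and 8 in Melan-a (a log2 difference of 4.39 ± 0.32 SE, edgeR adjusted p = 1.69e-06). All 4 of its tested circles open at exon 2. Exons 2 to 3 gave 59, 40 and 37 reads against 0, 8 and 5 (log2 fold of 3.93 ± 0.53 SE, edgeR adjusted p = 0.000236). The longer circles had reads in B16F10 alone: 28, 24 and 27 for exons 2 to 8 and 23, 15 and 19 for exons 2 to 7. The circle of exons 2 to 4, with 6, 4 and 4 reads against 0, was not called (edgeR adjusted p = 0.0501). It passed in 2 of the 8 alternatives that gave it a value, edgeR with totals alone (adjusted p = 0.0409) and DESeq2 (0.0442). Exons 5 to 7, too sparse to test and named after its values were seen, had 0, 3 and 2 reads in B16F10 against 4, 0 and 3 in Melan-a.

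Rngtt, the mRNA capping enzyme gene, was the host that fell in that list, with 6, 6 and 3 reads against 112, 54 and 122 (log2 fold of -3.75 ± 0.48 SE, edgeR adjusted p = 0.000307). Nearly all of its Melan-a reads came from 2 circles that open at exon 12. Exons 12 to 13 had 62, 44 and 66 Melan-a reads, with 0 in each B16F10 library. Exons 12 to 14, named after its values were seen, had 50, 0 and 53 and was too uneven to be tested. All 15 Rngtt reads in B16F10 came from other circles of the gene, most of which open at exon 2.

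Of 7 tested adhesion and matrix hosts 1 was lower and 0 higher, with a median log2 fold of 0.54. The one lower was Col28a1, a collagen gene, whose circle of exons 9 to 13 had 335, 452 and 354 Melan-a reads, with 0 in each B16F10 library. At 13634 ± 383 RPM (SD, n = 3) it was among the 4 most abundant circRNAs of Melan-a. Against a floor of 3 reads over the B16F10 libraries, 55.9 RPM, it was at least 244-fold lower in B16F10 (edgeR adjusted p = 2.88e-08, the smallest of all circRNAs). A second circle, exons 10 to 13, had 35, 0 and 35 Melan-a reads, with none in B16F10.

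Membrane traffic genes gave 1 host higher and 3 lower of 34 tested, with a median log2 fold of -0.3. Vps45, which encodes a Sec1/Munc18 protein of vesicle fusion, fell most: 7, 2 and 10 reads in B16F10 against 175, 283 and 227 in Melan-a (a log2 difference of -4.6 ± 0.39 SE, edgeR adjusted p = 8.88e-06). Its 3 tested circles all open at exon 8. Exons 8 to 10 gave 4, 2 and 9 reads against 79, 130 and 126 (log2 fold of -3.87 ± 0.43 SE, edgeR adjusted p = 4.2e-05). Exons 8 to 14 had 3, 0 and 1 against 61, 114 and 71 (log2 fold of -5.25 ± 0.54 SE, edgeR adjusted p = 3.9e-05). Exons 8 to 13 had 0 in each B16F10 library against 29, 36 and 13 in Melan-a. In each circle every B16F10 library lay below every Melan-a library.

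The other membrane traffic calls were smaller. Agap1, an Arf GTPase-activating protein gene, had 29, 43 and 44 reads over 20 circRNAs against 117, 137 and 97 (log2 fold of -1.03 ± 0.27 SE, edgeR adjusted p = 0.041). Wdfy3, a scaffold gene of selective autophagy, had 4, 5 and 3 against 18, 22 and 22 (log2 fold of -1.8 ± 0.49 SE, edgeR adjusted p = 0.0449). Dennd1a, an exchange factor gene for a Rab GTPase, had 19, 14 and 13 against 3, 8 and 7 (log2 fold of 1.87 ± 0.50 SE, edgeR adjusted p = 0.041). Each of these 3 calls was lost when any 1 library except Melan-a replicate 2 was left out, with edgeR adjusted p up to 0.256 for Agap1, 0.199 for Wdfy3 and 0.148 for Dennd1a. With all libraries, Agap1 was not called under totals alone (0.0581) nor Dennd1a under limma-voom (0.0577). Wdfy3 was not called under totals alone (0.0549), limma-voom (0.0562), the replicate block (0.0577), DESeq2 (0.114) or no filter (0.147).

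Solute carriers and metabolic enzymes gave 2 hosts lower and 0 higher of 15 tested, with a median log2 fold of -0.21. Gbe1, the glycogen branching enzyme gene, had 28, 22 and 18 reads against 166, 105 and 174 (log2 fold of -2.21 ± 0.33 SE, edgeR adjusted p = 0.00133). Nearly all came from 1 circle, exons 4 to 7, with 26, 21 and 18 against 155, 83 and 149 (log2 fold of -2.05 ± 0.36 SE, edgeR adjusted p = 0.00219). Slc7a11, a cystine transporter gene, had 9, 6 and 10 against 160, 11 and 185 (log2 fold of -3.38 ± 0.80 SE, edgeR adjusted p = 0.0224). Melan-a replicate 2 lay next to the B16F10 libraries there, and the Slc7a11 call was lost without B16F10 replicate 1 (0.0656) or 2 (0.0616), without Melan-a replicate 1 (0.108) or 3 (0.117), and under limma-voom (0.0883). Alg12, a mannosyltransferase gene of N-glycan assembly, is outside that list. Its circle of exons 6 to 7 had 51, 58 and 39 B16F10 reads against 267, 170 and 285 (log2 fold of -1.75 ± 0.32 SE, edgeR adjusted p = 0.0028).

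**Figure D2:**
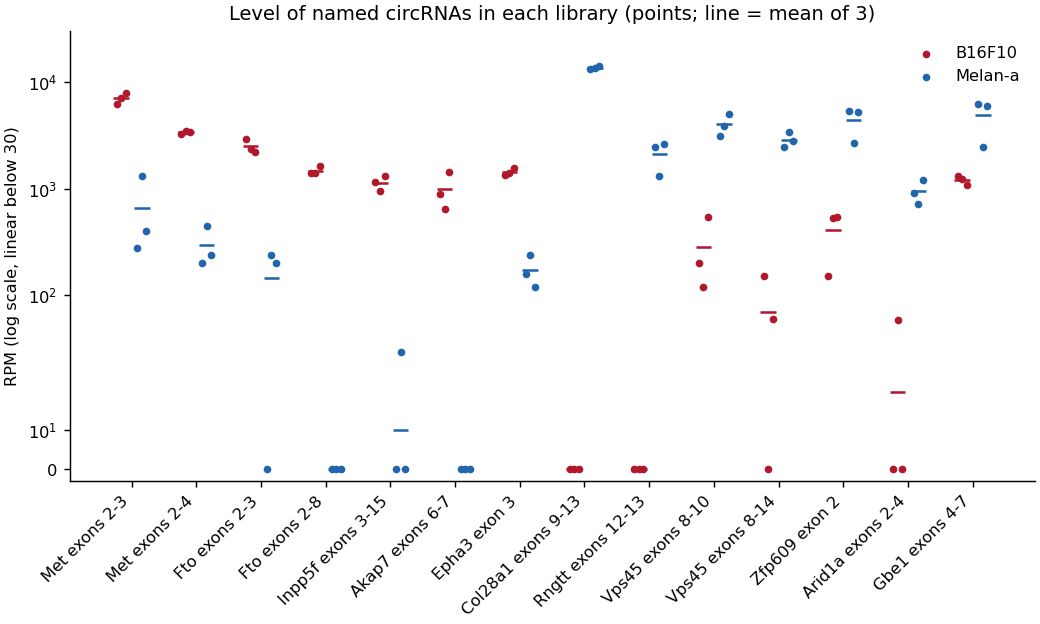
Each point is 1 library's level of a circRNA in RPM (log scale, linear below 30), red for B16F10 and blue for Melan-a, and each short line is the mean of 3 libraries. For the 7 circRNAs on the left every B16F10 point lies above every Melan-a point, and for the 7 on the right every B16F10 point lies below.

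Chromatin regulators gave 1 host higher and 2 lower of 33 tested, with a median log2 fold of 0.14. Arid1a and Arid1b encode alternative subunits of the BAF chromatin remodelling complex, and circles of both were lower in B16F10. Arid1a had 1 circRNA with reads, exons 2 to 4, which had 0, 1 and 0 reads in B16F10 against 23, 24 and 30 in Melan-a (a log2 difference of -5.34 ± 0.81 SE, edgeR adjusted p = 0.000606). Arid1b had 16, 14 and 20 reads over 9 circRNAs against 44, 87 and 53 (log2 fold of -1.3 ± 0.31 SE, edgeR adjusted p = 0.0251), a call lost when B16F10 replicate 1, 2 or 3 was left out (0.166, 0.129 and 0.0572) and without Melan-a replicate 3 (0.0664). Ash1l, a histone methyltransferase gene, was higher with 77, 59 and 54 reads over 15 circRNAs against 32, 43 and 23 (log2 fold of 1.5 ± 0.26 SE, edgeR adjusted p = 0.00427).

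Hosts of circRNAs that are well described in other cells gave 3 higher and 3 lower of 31 tested, with a median log2 fold of 0.1. Zfp609, a zinc finger gene whose exon 2 circle is known from muscle cells, fell: exon 2 had 3, 9 and 9 reads in B16F10 against 135, 89 and 133 in Melan-a (a log2 difference of -3.52 ± 0.44 SE, edgeR adjusted p = 0.000107). Its exons 2 to 3 had 0 in each B16F10 library against 14, 40 and 9. Tulp4 rose with 82, 82 and 81 host reads against 27, 57 and 13 (log2 fold of 1.93 ± 0.35 SE, edgeR adjusted p = 0.00537). Fbxw7, the substrate receptor gene of a ubiquitin ligase, had 41, 28 and 26 against 13, 28 and 18 (log2 fold of 1.23 ± 0.33 SE, edgeR adjusted p = 0.0431), and was the 1 host called of 20 tested ubiquitin ligases and proteases (1 higher, 0 lower, median -0.08). Leaving out any single library but Melan-a replicate 2 ended the Fbxw7 call (0.0796 to 0.181), as did the replicate block (0.0506). Ash1l was the other host higher in the list, and Pvt1 and Gigyf2 the others lower.

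DNA repair genes gave 2 hosts higher and 1 lower of 11 tested, with a median log2 fold of 0.23. Rad23b, of nucleotide excision repair, had 1 read in each B16F10 library and 14, 10 and 23 in Melan-a (a log2 difference of -3.35 ± 0.75 SE, edgeR adjusted p = 0.0176). Pms1, of mismatch repair, had 50, 60 and 60 against 23, 55 and 34 (log2 fold of 1.18 ± 0.30 SE, edgeR adjusted p = 0.0299), and Bard1, which encodes the partner of Brca1, had 9, 24 and 15 against 1, 10 and 2 (log2 fold of 2.47 ± 0.68 SE, edgeR adjusted p = 0.0464). Each call was lost without 4 or 5 of the 6 libraries in turn, reaching 0.117 for Rad23b, 0.112 for Pms1 and 0.211 for Bard1. Rad23b (0.0808) and Bard1 (0.188) were not called by limma-voom either.

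Both lines carried circRNAs of melanocyte genes. Of 39 melanocyte and pigment genes 24 had reads, and their summed level was 18000 to 19400 RPM in B16F10 and 10600 to 15200 in Melan-a. At host level 0 of 12 tested passed with edgeR in either direction (2 at an unadjusted p under 0.05, median log2 fold 0.15). DESeq2 called 2 higher and limma-voom 1. The single circle of Pmel, exons 7 to 8, had 201, 140 and 147 reads in B16F10 against 112, 214 and 87 in Melan-a, which is 9037 ± 913 against 4768 ± 1483 RPM (SD, n = 3). The fold on the log2 scale was 0.85 ± 0.28 SE (edgeR adjusted p = 0.0624), and 1.14 without Melan-a replicate 2 (0.000885). As a host, Pmel had an edgeR adjusted p of 0.0702 and passed in 8 of 13 alternatives: RLE factors (0.0494), totals alone (0.0436), no filter (0.0295), a minimum count of 10 (0.0484), the replicate block (0.0477), DESeq2 (0.0135), limma-voom (0.00702) and without Melan-a replicate 2 (0.00149). Pax3, a transcription factor gene of the neural crest, had 15, 18 and 18 host reads against 3, 14 and 1 (log2 fold of 2.1 ± 0.63 SE, edgeR adjusted p = 0.0591). It passed in 7 of 13 alternatives, among them RLE scaling (0.0494) and the fit without Melan-a replicate 2 (0.00407).

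Circles of the further marker genes Tyr, Trpm1, Dct and Mitf, named after their values were seen, had reads in both lines. Tyr had 21, 24 and 23 reads in B16F10 against 20, 41 and 29 in Melan-a (a log2 difference of 0.16 ± 0.33 SE, edgeR adjusted p = 0.833). Trpm1, an ion channel gene of melanocytes, had 12, 4 and 9 against 32, 25 and 15 (log2 fold of -0.99 ± 0.48 SE, edgeR adjusted p = 0.254). Dct, a melanin synthesis gene, had 4, 9 and 4 against 6, 23 and 1 and Mitf, the lineage's master transcription factor gene, 8, 2 and 4 against 0, 6 and 4. Other members of the list, also named after their values were seen, went either way. Tyrp1 had 4, 5 and 5 reads in B16F10 against 3, 0 and 0 in Melan-a, and Gpnmb 2, 0 and 0 against 4, 6 and 4. Hps1 had 0, 1 and 0 against 2, 5 and 9, and Sox10 0 in each B16F10 library against 0, 5 and 0. Mlana and Kit had 0 reads in all 6 libraries, which bears on their circles and not on their messenger RNAs.

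Circles of markers of other cell types were few, and those with reads are named after their values were seen. Of 31 keratinocyte and epithelial markers 4 had reads, summing to 850 to 1650 RPM in B16F10 and 507 to 875 in Melan-a, and the 1 tested host, the polarity gene Pard3, was not called (log2 fold 0.38, edgeR adjusted p = 0.732). Of 22 fibroblast and mesenchymal markers 2 had reads, Vim and Fbln1, with 99.9 to 120 RPM against 149 to 199, and Col1a1 was at 0. Of 27 immune markers only Ptpn6 had reads, 3 in Melan-a replicate 1. In these last 2 lists 0 hosts could be tested.

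The remaining lists, of cell cycle, TGF-beta and antigen presentation genes, gave no edgeR call at host level. Single circles of cell cycle genes, named after their values were seen, were called in both directions. Cdk8 exons 2 to 4 was called lower in B16F10 (12, 14 and 13 reads against 37, 74 and 33 in Melan-a). Prim2 exons 9 to 10 was called higher (12, 6 and 6 against 0, 2 and 0). Of 13 tested cell cycle hosts 8 had positive folds (median 0.74), with 0 called by edgeR or DESeq2, 1 called higher by limma-voom, and 5 with an unadjusted p under 0.05. The smallest p were those of Cdk8, a kinase gene of the Mediator complex (24, 24 and 25 reads against 50, 81 and 46, log2 fold of -0.71 ± 0.28 SE, edgeR adjusted p = 0.149), and of the spindle checkpoint gene Bub1b (99, 73 and 65 against 34, 127 and 30, log2 fold of 0.93 ± 0.39 SE, edgeR adjusted p = 0.188). Bub1b passed with the replicate block (0.0315), with no filter (0.0319), under limma-voom (0.0134) and without Melan-a replicate 2 (0.000387). Of 4 tested TGF-beta and BMP hosts 0 passed with edgeR, with DESeq2 or with limma-voom, and 0 lay at an unadjusted p under 0.05 (Smad1 edgeR adjusted p = 0.36, Hipk2 0.555). Canx, the only tested host of 42 antigen presentation and interferon genes, had a log2 fold of -0.71 (edgeR adjusted p = 0.378). That list also gave 0 calls with DESeq2, 0 with limma-voom, and none at an unadjusted p below 0.05.

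**Figure D3:**
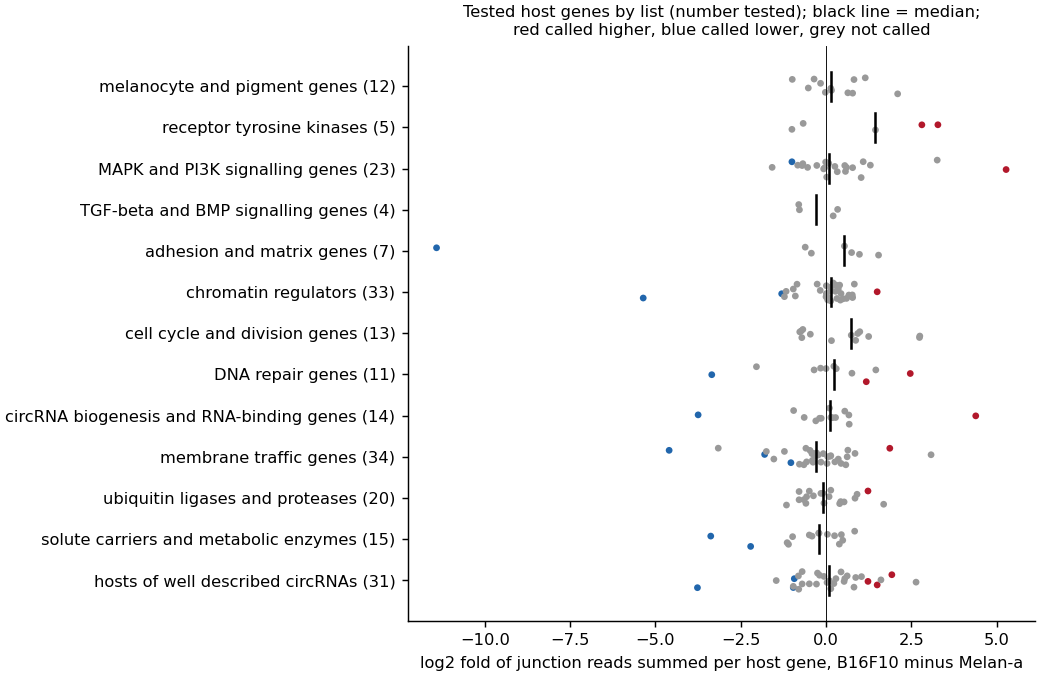
Each point is 1 tested host gene, placed by the log2 fold of its summed junction reads (B16F10 minus Melan-a) in the row of each list it belongs to, with the number tested in brackets and the list's median as a black line. Points called higher are red, called lower blue and not called grey, and the point near -11 is Col28a1, which had 0 reads in B16F10. Among the lists drawn, those with at least 4 tested hosts, medians lie between -0.3 and 1.45, and the receptor tyrosine kinases, with 5 hosts, have the highest.

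Some of the most abundant circRNAs were common to both lines. Of the 10 highest by mean RPM in each line, 5 were shared: those of Elf2, Gigyf2, Pvt1, Eefsec and Zfp516. Elf2, an ETS transcription factor gene, led in B16F10 with 369, 343 and 364 reads, against 560, 983 and 610 in Melan-a. Its circle did not pass the test (log2 fold of -0.4 ± 0.19 SE, edgeR adjusted p = 0.226). Zfp516 stood at 7106 ± 916 RPM against 7010 ± 534 (SD, n = 3; log2 fold of -0.04 ± 0.24 SE), and Rnf169 at 5920 ± 319 and 6357 ± 720 (log2 fold of -0.17 ± 0.24 SE).

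Of the 15 circRNAs in either top 10, 3 were higher in B16F10 and 5 lower, against 44 (5.03%) and 51 (5.84%) of all 874 tested. The 15 were picked by their level in these same libraries, so these counts are a description. Eefsec, the elongation factor gene for selenocysteine, had 280, 258 and 304 reads against 174, 163 and 189, or 15809 ± 2167 against 6437 ± 1397 RPM (SD, n = 3; log2 fold of 1.23 ± 0.23 SE, edgeR adjusted p = 0.00306). The circle listed for both Eif5b and Rev1 (chr1:38053616-38085652) matched exons 7 to 22 of Rev1, a translesion polymerase gene. It had 210, 217 and 191 reads against 97, 145 and 56 (log2 fold of 1.66 ± 0.28 SE, edgeR adjusted p = 0.00187). The other one higher was Met exons 2 to 3.

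Those lower were the circles of Col28a1 and Alg12, given above, and of Gigyf2, Pvt1 and Txndc11. Gigyf2, a translational repressor gene, stood at 14907 ± 796 RPM against 27228 ± 7419 and the long noncoding gene Pvt1 at 12516 ± 1470 against 22266 ± 3730 (SD, n = 3). Each lost its call when any 1 B16F10 library was left out (edgeR adjusted p of 0.103 to 0.128 for Gigyf2 and 0.0815 to 0.14 for Pvt1). Without Melan-a replicate 3 the Gigyf2 value was 0.0661. Pvt1 did not pass with the replicate block (0.0506) or with no filter (0.076). Txndc11 had 27, 39 and 32 reads against 165, 120 and 175 (log2 fold of -1.68 ± 0.33 SE, edgeR adjusted p = 0.00356), and was not called without B16F10 replicate 1 (0.0547).

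Ezh2 exons 2 to 3 (chr6:47576536-47577667) had 152, 119 and 128 reads against 89, 219 and 86 and did not pass (log2 fold of 0.64 ± 0.30 SE, edgeR adjusted p = 0.201). Melan-a replicate 2 was the highest of its line in RPM, and without it the value was 1.04 (0.00174). It also passed under limma-voom (0.0249). A longer circle of this Polycomb methyltransferase gene, exons 2 to 8, named after its values were seen, was called higher with 19, 17 and 18 reads against 5, 13 and 10 (log2 fold of 1.52 ± 0.44 SE, edgeR adjusted p = 0.036). Hipk3 exon 2, a much studied circRNA, had 128, 119 and 84 reads against 94, 158 and 113 (log2 fold of 0.45 ± 0.26 SE, edgeR adjusted p = 0.338).

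The 10 most abundant circRNAs of each library took 11.5% ± 0.125 of B16F10 reads and 13.8% ± 0.694 of Melan-a reads (SD, n = 3), and the libraries of the lines did not overlap (exact two-sided permutation p = 0.1, the smallest that 3 against 3 allows). CircRNAs of 1 annotated exon took 8.38% ± 0.367 and 9.91% ± 1.47 (SD, n = 3; exact two-sided permutation p = 0.3). Melan-a replicate 2, at 8.21%, lay among the B16F10 libraries there.

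Some circRNAs had reads in 1 line alone. With at least 2 reads in each library of a line and 0 in each of the other, 33 circRNAs belonged to B16F10 alone and 44 to Melan-a alone, from 31 and 42 hosts. Most were rare, with medians of 12 and 15 reads over 3 libraries, and 10 and 7 could be tested. Being selected on these counts, they get no test as a group. Against a floor of 3 reads over the libraries of the other line, the 4 most abundant in B16F10 were at least 41.1-fold (Fto exons 2 to 8), 29.7-fold (Fto exons 2 to 7), 27.6-fold (Akap7 exons 6 to 7) and 19.3-fold (Inpp5f exons 3 to 9) higher. Those in Melan-a were at least 244-fold (Col28a1 exons 9 to 13), 36.7-fold (Rngtt exons 12 to 13), 16.6-fold (Vps45 exons 8 to 13) and 13.4-fold (Zfp609 exons 2 to 3) lower in B16F10. With a minimum of 5 reads per library the counts fell to 6 and 11. Thinned to 16697 reads per library they were 43 and 31, so their order depends on depth.

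Named after their values were seen, the B16F10 group also held a circle of Brca1, exons 14 to 18, with 4, 9 and 5 reads. It held 1 of the melanocyte gene Bnc2, exons 2 to 4, with 4, 3 and 5, and 1 of Epha3, exons 8 to 13, with 4, 3 and 2. The Melan-a group held Foxo1 exon 2, a forkhead factor gene, with 11, 10 and 9 reads. CircBase, a public circRNA catalogue, had an identifier in the table for 14 of the 33 only in B16F10 (42.4%) and 42 of the 44 only in Melan-a (95.5%). The share was 77.0% over all 8857, 97.8% over those tested, 84.1% over those called higher and 96.1% over those called lower.

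CircRNAs of 1 host tended to be called in 1 direction, a description since they share a host gene. The 94 called circRNAs with a single host came from 80 genes, and 12 genes had at least 2 called circRNAs, 26 in all. In each of these 12 genes all called circRNAs lay on the same side. In 7 of them (Cfap54, Fto, Inpp5f, Met, Mpzl1, Vps45 and Zfp609) the circles opened at the same exon start and differed in where they closed. In Bcas3 they shared the closing exon end, and in Agap1, Eefsec, Epha3 and Zfp827 neither.

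**Figure D4:**
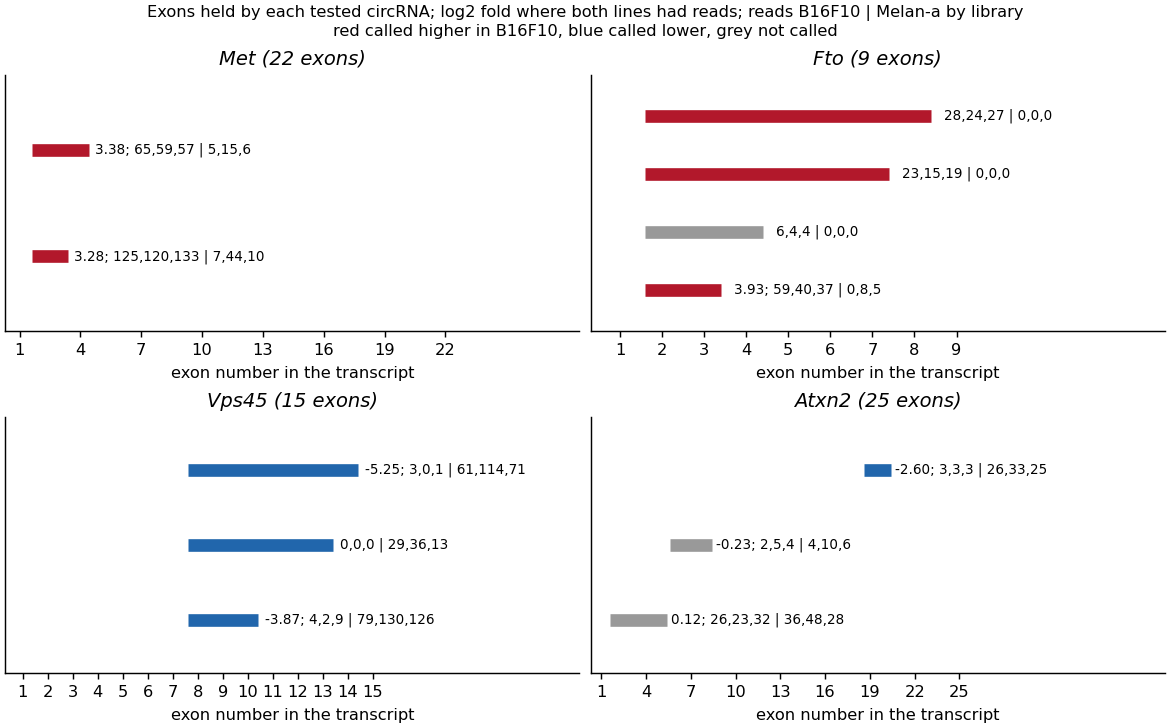
Each bar is a tested circRNA, spanning the exons it holds on an x axis of exon numbers, in 4 host genes. Beside it stand the log2 fold, B16F10 minus Melan-a, where both lines had reads, and the reads in the 3 B16F10 and the 3 Melan-a libraries. Red bars were called higher, blue bars lower and grey bars not called. The circles of Met, Fto and Vps45 each open at 1 exon, while in Atxn2 only the circle of exons 19 to 20 was called.

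In some hosts the circles changed unequally, Agap1 and Fto of the genes above among them. Of 151 hosts with at least 2 tested circRNAs, 8 (5.3%) passed the edgeR test of unequal folds within a host. Akap7, a kinase anchoring protein gene, had 18, 11 and 24 reads for exons 6 to 7 in B16F10 with none in Melan-a, against 18, 11 and 8 and 3, 6 and 9 for exons 2 to 5 (edgeR adjusted p = 0.0107 for the host). In Atxn2, an RNA-binding protein gene, exons 19 to 20 fell with 3 reads in each B16F10 library against 26, 33 and 25 (log2 fold of -2.6 ± 0.48 SE). Exons 2 to 5 of Atxn2 had 26, 23 and 32 against 36, 48 and 28 (log2 fold of 0.12 ± 0.32 SE). In Agap1, exons 6 to 8 had 0 reads in each B16F10 library against 19, 12 and 24, while exons 4 to 6 had 3, 13 and 8 against 15, 7 and 7 (log2 fold of 0.29 ± 0.64 SE).

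Fam53b circles lay on opposite sides: exon 4 had 31, 21 and 26 reads against 17, 13 and 10 (log2 fold of 1.51 ± 0.38 SE) and exons 2 to 3 had 35, 37 and 35 against 54, 138 and 64 (log2 fold of -0.63 ± 0.32 SE, not called). The exon 4 call of Fam53b (edgeR adjusted p = 0.0223) was lost without B16F10 replicate 1 (0.116) or 3 (0.0989), without Melan-a replicate 3 (0.0772), with no filter (0.0692) and under DESeq2 (0.0556). Kansl1, a scaffold gene of a histone acetyltransferase complex, had 1 circle higher (chr11:104423922-104426468, with no matching exons in 1 transcript) with 25, 11 and 20 reads against 6, 0 and 0. That call of Kansl1 (edgeR adjusted p = 0.0103) was lost without B16F10 replicate 1 (0.0845) and under limma-voom (0.116). Its other 4 tested circles had log2 folds of -0.29 to 0.61. These 5 hosts had the same edgeR adjusted p of 0.0107. The remaining 3 hosts, named after their values were seen, were Rabep1 (0.0155), Ncoa2 (0.0456) and Fto (0.0483). The count of 8 rested on few libraries: it was 0 without B16F10 replicate 1 or 3, 2 without B16F10 replicate 2 and 1 without Melan-a replicate 3.

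Sequence features of the called circRNAs are given as descriptions. Of the 859 tested circRNAs matched to exons, 43.7% opened at exon 2 of their transcript, against 12 of 41 (29.3%) called higher and 28 of 51 (54.9%) called lower. The median spliced length was 454 bases over those tested, 579 for those higher and 404 for those lower. The annotated start codon was held by 189 of the 859 tested, 9 of 41 called higher and 7 of 51 called lower. The flanking introns were long in each set, with medians before the circle of 16215.5 bases over those tested, 17977 for those higher and 18951 for those lower, against 8246 over all circRNAs with reads.

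Because the series title concerns encoded peptides, the reading frame of the host was followed across each back-splice. No value here bears on whether any circle is translated. The host frame ran into the join in 842 of the 859 tested, and in 249 of them (29.6%) it met no stop codon however often the circle was read. The same held for 9 of 41 called higher and 14 of 47 called lower. Both Met circles, of 1260 and 1452 bases, belonged here: each is a multiple of 3 in length, holds the annotated start codon and has no stop codon in that frame. Col28a1 exons 9 to 13, Arid1a exons 2 to 4, Vps45 exons 8 to 10, Akap7 exons 6 to 7 and Fto exons 2 to 7 also had no stop.

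In the rest, the median number of codons read past the join before a stop was 10 over those tested, 15.5 for those higher and 8 for those lower. At least 20 such codons were found in 169 of 593 tested, 13 of 32 called higher and 9 of 33 called lower. As shares of all circles whose host frame ran into the join, those without a stop included, these were 20.1%, 31.7% and 19.1%. Among the named circles, the frame gave 34 codons past the join in Rngtt exons 12 to 13 and 22 in Inpp5f exons 3 to 15. It gave 13 in Vps45 exons 8 to 14, 7 in Epha3 exon 3, 5 in Fto exons 2 to 3, 2 in Fto exons 2 to 8 and 1 in Zfp609 exon 2.

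Some circRNAs were read unevenly between libraries of 1 line. Of 366 circRNAs with at least 20 reads in a Melan-a library, 18 (4.92%) had 0 in another, and of 183 in B16F10, 3 (1.64%) did. Together these were 20 circRNAs, of which 8 were tested and 0 called with edgeR. The largest was the circle of exons 2 to 6 of Phf21a, a histone reader gene, with 289, 0 and 0 reads in B16F10 against 358, 607 and 0 in Melan-a (log2 fold -1.2, edgeR adjusted p = 0.677). It passed with no filter (0.00269) and without B16F10 replicate 1 (0.0356), where all its remaining B16F10 libraries were at 0.

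The mammary pair was read only to find which differences were particular to the melanocyte lines. Of the 8928 circRNAs listed in both tables, 1403 could be tested for a difference between the folds, and 162 (11.5%) passed the edgeR interaction test. Of the 95 circRNAs called in B16F10 against Melan-a, 78 were among those tested, 27 passed, and 23 of these 27 had folds of opposite sign. Over the 78, 44 had the same sign in both pairs. The 78 were picked by their fold in these same libraries, which is part of the tested difference, so these counts are a description. Zfp609 exon 2 had log2 folds of -3.51 (SE 0.38) in B16F10 and -3.12 (SE 0.34) in 4T1, whose difference of -0.39 (SE 0.5) did not pass (edgeR adjusted p = 0.69). Named after their values were seen, further circles given above had 1 sign in both pairs. Log2 folds in B16F10 and 4T1 were 3.96 and 4.35 for Fto exons 2 to 3 (edgeR adjusted p of the difference 0.802). They were -2.04 and -2.65 for Gbe1 exons 4 to 7 (0.64) and -1.74 and -2.26 for Alg12 exons 6 to 7 (0.511). Arid1a exons 2 to 4 was lower in both, with 0 reads in each 4T1 library against 7, 7 and 14 in Eph4-ev (0.711). Met exons 2 to 3, named here after its values were seen, was higher in B16F10 (log2 fold of 3.29 ± 0.48 SE) and lower in 4T1, with 3, 0 and 3 reads against 22, 12 and 7 in Eph4-ev (log2 fold of -1.93 ± 0.75 SE, edgeR adjusted p of the difference 0.00022).

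Other circRNAs that passed, named after their values were seen, were those of Vps45 and Ncoa2 among others. Vps45 exons 8 to 10 had log2 folds of -3.86 (SE 0.46) in B16F10 and -0.85 (SE 0.41) in 4T1 (edgeR adjusted p of the difference 0.00233). Ncoa2 exons 2 to 4, of a nuclear receptor coactivator gene, was lower in B16F10 (log2 fold of -1.12 ± 0.34 SE) with a fold of 1.3 (SE 0.42) in 4T1 (0.00415). Its call within the melanocyte lines (edgeR adjusted p = 0.0241) was lost with no filter (0.0938), without B16F10 replicate 1, 2 or 3 (0.0685, 0.176 and 0.129) and without Melan-a replicate 1 (0.0615).

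**Figure D5:**
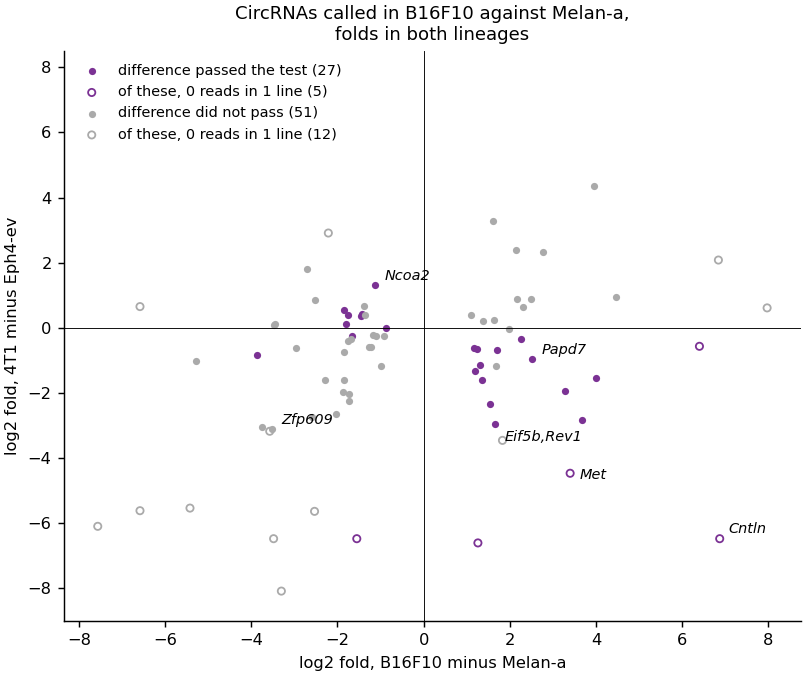
Each point is 1 of the 78 circRNAs called in B16F10 against Melan-a that could be tested in both pairs, with the log2 fold of B16F10 minus Melan-a on the x axis and of 4T1 minus Eph4-ev on the y axis. Purple points (27) passed the edgeR test of the difference, and open circles had 0 reads in 1 of the 4 lines, so that their position depends on the prior count. Most purple points lie in the lower right and upper left of the plot, where the folds have opposite signs.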

How the data were processed

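Back-splice junction reads of B16F10 and Melan-a, 3 libraries each, were analysed. Per the labels' protocols, total RNA was extracted with TRIzol, treated with RNase R, ligated to adapters, reverse transcribed, amplified and cut from a gel, and the callers were CIRI2, which reads BWA-MEM alignments, and CIRCexplorer2, which reads those of TopHat. The submitters' processing notes also name mm10, DESeq, DESeq2 and edgeR, with no step assigned to any. The sources used here do not state how calls were merged or filtered, nor the annotation. Per the file headers, the deposited table gives for each circRNA its host gene, a read count per library and an RPM value. The RPM values, as deposited, follow the count divided by the library's total of junction reads. Gel selection and PCR without mentioned molecular identifiers mean that reads are not independent molecules, and that circle size may affect counts.

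The members and gene lists were chosen with earlier results of these data known. Groups came from the labels. Counts were tested with edgeR 4.0.16 in R 4.3.3 (TMM factors, library size of all junction reads, minimum count of 5 and total of 10, quasi-likelihood F test, Benjamini-Hochberg adjusted p under 0.05), per circRNA and per host gene with the reads of its single-host circRNAs summed. Unequal folds within a host were tested with diffSpliceDGE, and differences between the pairs with an interaction term over all 12 libraries of the series. Shares of reads were compared with an exact permutation test, whose smallest p is 0.1. DESeq2 1.42.0, limma 3.58.1 (voom with quality weights), RLE factors, totals alone, no filter, a minimum of 10, a replicate block and leaving out each library were the alternatives. Scripts were tested on simulated data. Figures were drawn with matplotlib 3.10.9.

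Named were the 10 circRNAs with the smallest p in each direction, the 10 most abundant of each line, the 4 most abundant read only in each line, per list every called host up to 6 (else the 2 of smallest p), the 5 most unequal hosts, and the 5 of smallest p between the pairs. Some results covered by the rule are left out here. Others are said to be named after their values were seen. Exons, coding regions and sequences came from GENCODE M21 on GRCm38, coordinates counted from 1. Floors stand for 3 reads over the 3 libraries of a line and cover counting error only. Antisense and overlapping hosts cannot be told apart in the table, and 140 circRNAs listed with several hosts stayed out of host sums.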

Additional observations from a re-analysis of the deposited data

Results flagged for a closer look

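The circRNAs below had among the smallest p for a difference between B16F10 against Melan-a and 4T1 against Eph4-ev among those called in the melanocyte lines (edgeR interaction test, 162 of 1403 passing). The 4 lines differ in tissue, so tissue and tumour kind cannot be told apart. The circle listed for Eif5b and Rev1 was higher in B16F10 (log2 fold 1.66, SE 0.29) and lower in 4T1, with 9, 4 and 23 reads against 168, 143 and 158 in Eph4-ev (log2 fold -2.97, SE 0.34). The folds differed by 4.63 (SE 0.45, edgeR adjusted p = 3.56e-07).

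Papd7 exons 2 to 4, of a poly(A) polymerase gene, had 32, 25 and 18 reads against 10, 5 and 4, and in the mammary pair 26, 46 and 56 against 133, 152 and 177 (difference 3.49, SE 0.54, edgeR adjusted p = 0.000104).

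Cntln exons 6 to 12, of a centrosomal gene, had 12, 6 and 7 reads in B16F10 and 0 in Melan-a, with 0 in 4T1 and 17, 19 and 18 in Eph4-ev. The fitted difference of 13.35 (edgeR adjusted p = 0.000158) depends on the prior count, as do those of the other circles with a line at 0. The Cntln call in the melanocyte lines was lost under limma-voom (0.0601) and without B16F10 replicate 1 (edgeR adjusted p = 0.14). Met exons 2 to 4 had 0 reads in each 4T1 library and 2, 5 and 6 in Eph4-ev, and its fitted folds differed by 7.87 (edgeR adjusted p = 0.000167).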

How the results depend on the processing

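None of the 33 called circRNAs and 24 called hosts followed under the alternatives changed direction in any. Of these, 24 circRNAs and 12 hosts kept their call in every alternative that gave them a value. Leaving out 1 library in turn gave 22 to 72 circRNAs higher in B16F10 (44 with all libraries) and 20 to 73 lower (51), 16 to 60 hosts higher (25) and 13 to 63 lower (39), 0 to 9 hosts with unequal folds (8) and 125 to 169 circRNAs that differed between the pairs (162). It gave 48 to 92 circRNAs read only in B16F10 (33) and 72 to 135 only in Melan-a (44), where fewer libraries have to meet the rule. The highest counts of calls in the melanocyte lines came without Melan-a replicate 2. Each run with 1 library left out also tested more circRNAs in these lines, 964 to 1292 against 874. No filter gave 41 hosts higher. At least 5 reads in each library left 6 and 11 circRNAs read in 1 line. DESeq2 called 32 circRNAs higher and 35 lower, limma-voom 36 and 45. With the replicate block 38 circRNAs were higher and 40 lower, 29 hosts higher and 40 lower, 6 hosts were unequal and 107 circRNAs differed between the pairs. Deviations from the line mean correlated at r of 0.067, -0.057 and 0.014 for libraries of the same number, and at -0.12 to 0.107 for different numbers. Such small values cannot show whether the numbers pair the libraries. Scaling by totals alone moved the median log2 fold from 0.04 to 0.1 over circRNAs and from -0.0 to 0.11 over hosts. The cause of these changes was not tested. With at most 33557 junction reads per library, 7983 of the 8857 circRNAs were not testable at this depth.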
